A study of Kluyveromyces lactis with 8 samples.

Results

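The genes described here encode the proteins of the cytosolic ribosome of Kluyveromyces lactis, the milk yeast. They were chosen by name: a gene was taken when its symbol in the RefSeq gene table (assembly ASM251v1, joined by locus tag) was RPL or RPS followed by a digit. The rule used no measured value. It gave 51 genes of 5076 in the deposited tables, 26 for the large subunit and 25 for the small subunit. All 51 were listed in all 8 libraries, and all were tested, together with every other gene that averaged 1 FPKM or more, 5022 genes in all. FPKM, the deposited unit, stands for fragments per kilobase of gene per M mapped fragments.

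A ribosome is built from ribosomal RNA and one copy of most of its proteins, so a growing yeast cell needs the proteins in nearly equal numbers. In yeasts their genes are among the most strongly transcribed, and in Saccharomyces cerevisiae they are transcribed together under Rap1, Fhl1, Ifh1 and Sfp1, which answer to nutrient signals. Some of these proteins are encoded by a pair of paralogs, marked A and B in the symbol.

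RNA was measured in 4 strains with 2 libraries each: a wild type (WT, strain LRY2835) and strains lacking SIR2 (LRY2850), SIR4 (LRY3096) or SUM1 (LRY3098). All 4 strains, the WT included, were MATa and carried deletions of both silent mating cassettes, hml∆ and hmr∆, and each genotype was represented by 1 strain. SIR2 encodes an NAD-dependent histone deacetylase, SIR4 a structural protein of silent chromatin, and SUM1 a DNA-binding repressor. Cultures grew in YPD, a rich glucose medium, at 30 °C from an OD of 0.3 to early log phase at an OD of 1. The series design calls both libraries of a strain technical replicates, so the p-values cover the spread between libraries and not that between cultures.

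Depth, estimated from the steps between FPKM values, ran from 10.1 to 26.2 M reads per library. Both sir4∆ libraries lay among the 4 libraries under 15 M reads and both sum1∆ libraries among the 4 above it, while WT and sir2∆ had a library on each side. The summed FPKM of all genes was not the same in every strain. It was 1838448 and 1850300 in WT, 1709781 and 1690136 in sir2∆, 1895709 and 1883255 in sir4∆, and 1635759 and 1650047 in sum1∆. Scaling libraries by their median ratio over genes hardly changed the deposited values. The median log2 change of the ribosomal protein genes in sir2∆ was -0.312 before it and -0.31 after it. SUM1 was listed at 31.2 and 28 FPKM in WT and at 0 in both sum1∆ libraries. The gene table gives no symbol SIR2 or SIR4, so these deletions rest on the labels.

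A large share of all FPKM fell on the ribosomal protein genes. They held 20.7% and 20.2% of the summed FPKM in the WT libraries, 17.8% and 18.1% in sir2∆, 18.4% and 19.1% in sir4∆, and 18.7% and 18.5% in sum1∆. Every mutant library lay below both WT libraries. Large subunit genes held 9.81% and 9.7% in WT against 8.5% to 9.27% in the 6 mutant libraries, and small subunit genes 10.9% and 10.5% against 9.25% to 9.8%. The share is relative to the rest of the RNA in a library: fewer transcripts per cell and more of other transcripts cannot be told apart in these bulk cultures.

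**Figure D1:**
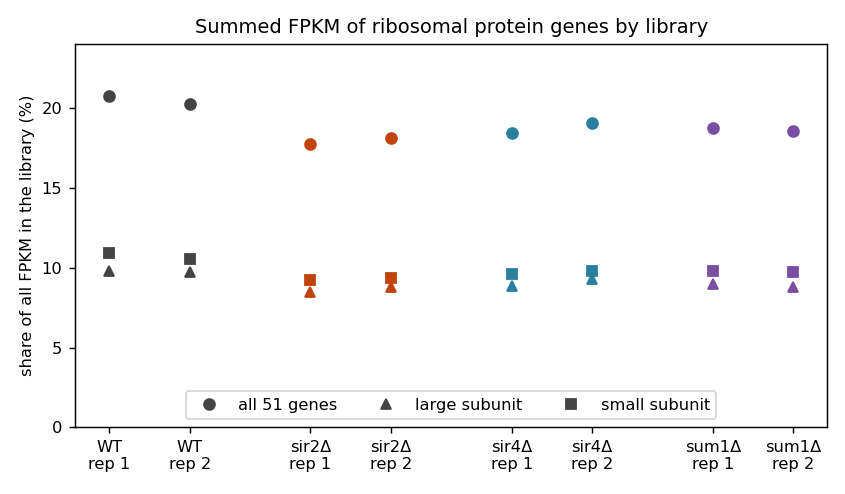
Share of each library's summed FPKM held by all 51 ribosomal protein genes (circles), by the 26 large subunit genes (triangles) and by the 25 small subunit genes (squares), in percent, with 1 point per library. All 6 mutant libraries lie between 17.8% and 19.1% for the whole group, below WT at 20.2% and 20.7%.

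In WT, mean levels ran from 234 FPKM for RPS22B to 37235 FPKM for RPS28A, and 49 of the 51 genes had a mean over all 8 libraries of at least 1000 FPKM, a level that 266 genes reached. The top of the order was held by very short genes. RPS28A, a small protein near the mRNA exit channel with a listed length of 204 bases, stood at 38567 and 35902 FPKM in the WT libraries. RPL29, a short large subunit protein with a listed length of 189 bases, stood at 36784 and 36189 FPKM. These values overlap, so the order of the 2 genes is not settled. RPL38 (19197 FPKM, mean of WT), RPS25A (18100 FPKM), RPS26A (15723 FPKM) and RPL32 (12060 FPKM) were the next highest in their subunits. This order depends on how length is counted. By estimated reads per kilobase of listed length in WT replicate 1, RPS31 (178225) lay above RPS25A (154283). By the same measure RPL1B (149252) lay above RPL38 (130966) and RPL32 (121012).

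The lowest large subunit genes in WT were RPL9B (1110 ± 21.3 FPKM, SD, n = 2), RPL28 (1614 ± 3.37 FPKM) and RPL31B (2058 FPKM). The lowest small subunit genes were RPS22B (234 ± 6.66 FPKM), RPS9B (1528 FPKM) and RPS11B (1684 FPKM). The length behind the value bears on this order. In the RefSeq list 35 of the 51 genes have a listed length that is a multiple of 3 and 16 do not, against 97.8% multiples of 3 over all genes. Whole reads were recovered with the full listed length for 14 or 15 of the 15 such genes over 600 bases that could be examined in each library. The deposited FPKM therefore divides by that span, with any intron in it, and the levels of these genes per spliced length are understated. The median WT level was 7983 FPKM for lengths that are multiples of 3 and 3362 FPKM for the other lengths. A multiple of 3 does not exclude an intron in the span: RPS22B is listed at 1530 bases and its paralog RPS22A at 393. Levels of genes with such lengths, RPL28 at 1194 bases among them, may therefore be understated too, and their low ranks are not settled. Fold changes between strains do not depend on the length.

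**Figure D2:**
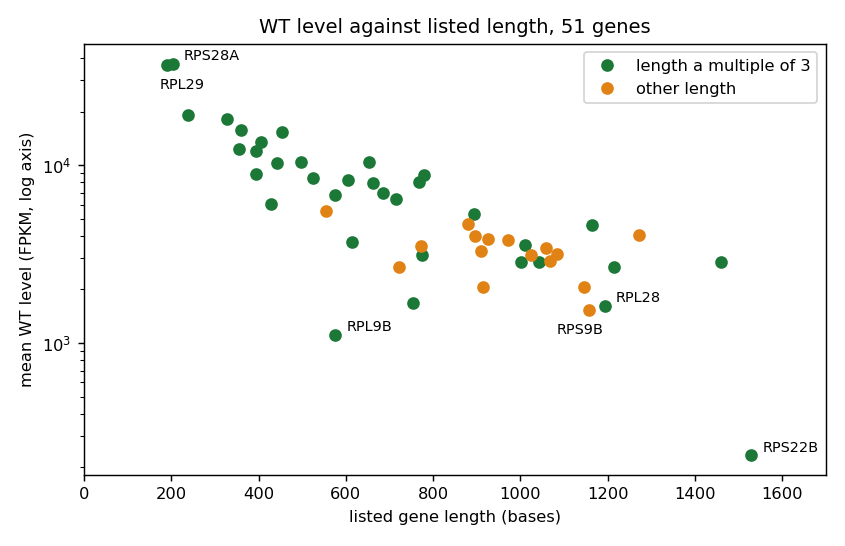
Mean WT level in FPKM (log axis) against the listed gene length in bases for the 51 ribosomal protein genes, with lengths that are a multiple of 3 in green and other lengths in orange. The shortest genes, RPL29 and RPS28A, are the highest at 36487 and 37235 FPKM, and RPL9B (1110 FPKM) and RPS22B (234 FPKM) are the lowest.

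Ribosomal protein genes fell almost throughout in the strain lacking SIR2. Of the 51 genes, 48 were lower than WT at an adjusted p below 0.05, 1 was higher and 2 were not called, where 29.2% of all tested genes were lower and 28.9% higher. The median log2 fold change was -0.31, against -0.01 over all tested genes, so most changes were small. Fold changes and p-values are from limma on log2(FPKM + 1), adjusted by Benjamini-Hochberg over all tested genes. Only RPL9B also passed a fold of 2, a call that 5.62% of all genes received. Large subunit genes were lower in 25 of 26 cases (median -0.31) and small subunit genes in 23 of 25 (median -0.29). In 50 of the 51 genes both sir2∆ libraries lay below both WT libraries, an order seen in 2032 of the 5022 tested genes.

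How far the group fell depended on how libraries were put on one scale. With every library set to the same total FPKM, a setting added after the data were seen, 37 genes (72.5%) were lower in sir2∆, against 17.7% of all genes, and the median was -0.19 against 0.11 over all genes. Under quantile normalization, which gives every library the same distribution of values, 25 (49%) were lower, against 38.2% of all genes, and the median was -0.13 against -0.08 over all genes.

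Apart from RPL9B, the large subunit genes that fell most in sir2∆ were RPL28 and RPL30. RPL28, the protein altered in cycloheximide-resistant mutants of S. cerevisiae, stood at 1611 and 1616 FPKM in WT, 979 and 992 in sir2∆, 1453 and 1414 in sir4∆, and 975 and 1012 in sum1∆. RPL30, which in S. cerevisiae controls the splicing of its own transcript, stood at 5536 and 5532 FPKM in WT, 3480 and 3419 in sir2∆, 4927 and 5016 in sir4∆, and 3589 and 3592 in sum1∆. For both genes the sir2∆ and sum1∆ libraries lay together, well below WT, with sir4∆ between. The log2 change in sir2∆ was -0.71 ± 0.04 (SE) for RPL28 (adjusted p = 6.31e-06) and -0.68 ± 0.04 for RPL30 (adjusted p = 2.66e-06).

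Among the small subunit genes the largest falls in sir2∆ were those of RPS11B, RPS15 and RPS22A. RPS11B, whose bacterial counterpart binds ribosomal RNA early in assembly, stood at 1717 and 1651 FPKM in WT, 1058 and 1076 in sir2∆, 1374 and 1413 in sir4∆, and 1056 and 991 in sum1∆. RPS15, needed in S. cerevisiae for export of the small subunit from the nucleus, stood at 6478 and 5567 FPKM in WT, 3992 and 4178 in sir2∆, 5319 and 4818 in sir4∆, and 3860 and 3682 in sum1∆. The RPS15 libraries of WT and of sir4∆ were each the farthest apart of any ribosomal protein gene in their strain, by 0.22 and 0.14 on the log2 scale, yet neither strain overlapped sir2∆ or sum1∆. The log2 changes in sir2∆ were -0.66 ± 0.05 for RPS11B (adjusted p = 2.2e-05), -0.56 ± 0.08 for RPS15 (adjusted p = 0.000569) and -0.54 ± 0.04 for RPS22A (adjusted p = 2.37e-05).

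The genes nearest to no change in sir2∆ were few. RPL42A (log2 change -0.12, adjusted p = 0.0549) and RPS9B (-0.07, adjusted p = 0.213) were not called. RPL37A (-0.13, adjusted p = 0.0182), RPL35A (-0.16, adjusted p = 0.0117) and RPS3 (-0.15, adjusted p = 0.00751), a protein at the mRNA entry channel, were called lower. Under quantile normalization RPL35A, RPL37A, RPL42A and RPS9B turned to small positive values, none of them called, and RPL37A lost its call when any 1 WT or sir2∆ library was left out, as did RPL35A without WT replicate 1 or sir2∆ replicate 2. At equal totals RPL35A, RPL37A and RPS3 lost their calls and RPS9B turned to 0.05, not called. RPS22B was the gene called higher, and it is described with its paralog further on.

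The strain lacking SUM1 showed a fall of the same size. There 49 of the 51 genes were lower than WT, none was higher by limma, also at an unadjusted p below 0.05 (0 genes), and 2 were not called, where 32.6% of all tested genes were lower and 33.6% higher. The 2 not called were RPS22B (log2 change 0.04) and RPS9B (0.01). The median log2 change was -0.31, against -0.01 over all genes, and all 26 large subunit genes (median -0.31) and 23 of 25 small subunit genes (median -0.31) were lower. RPL9B alone passed a fold of 2, which 10.6% of all genes passed. The scale mattered more here than in sir2∆. With equal total FPKM 30 genes (58.8%) were lower and 2 higher, where 18.4% of all genes were lower, and the median was -0.15 against 0.16 over all genes. Under quantile normalization 17 (33.3%) were lower and 5 higher, where 42.6% of all genes were lower, and the median was -0.04 against -0.10 over all genes. Relative to the median of all genes, the group therefore lay lower on the deposited scale and at equal totals, and not under quantile normalization.

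RPL28 (-0.70 ± 0.04, adjusted p = 3.97e-06), RPL30 (-0.62 ± 0.04, adjusted p = 2.73e-06), RPS11B (-0.72 ± 0.05, adjusted p = 7.04e-06) and RPS15 (-0.67 ± 0.08, adjusted p = 0.000127) again fell most in sum1∆ after RPL9B. RPS2, a protein of the decoding region, stood at 9080 and 8470 FPKM in WT, 5877 and 6601 in sir2∆, 7409 and 7533 in sir4∆, and 5917 and 6267 in sum1∆. Its log2 change in sum1∆ was -0.53 ± 0.06 (adjusted p = 0.000152). The smallest called falls in sum1∆ were those of RPL15B (-0.12, adjusted p = 0.035), RPL35A (-0.14, adjusted p = 0.0181), RPL42A (-0.16, adjusted p = 0.0173) and RPS6A (-0.16, adjusted p = 0.00583), the yeast form of a protein phosphorylated on nutrient signals. These 4 turned positive both at equal totals and under quantile normalization, where RPL15B, RPL35A and RPS6A were called higher. RPL15B lost its call when any 1 WT or sum1∆ library was left out, RPL35A without WT replicate 1 or sum1∆ replicate 2, and RPL42A without WT replicate 1 or either sum1∆ library.

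**Figure D3:**
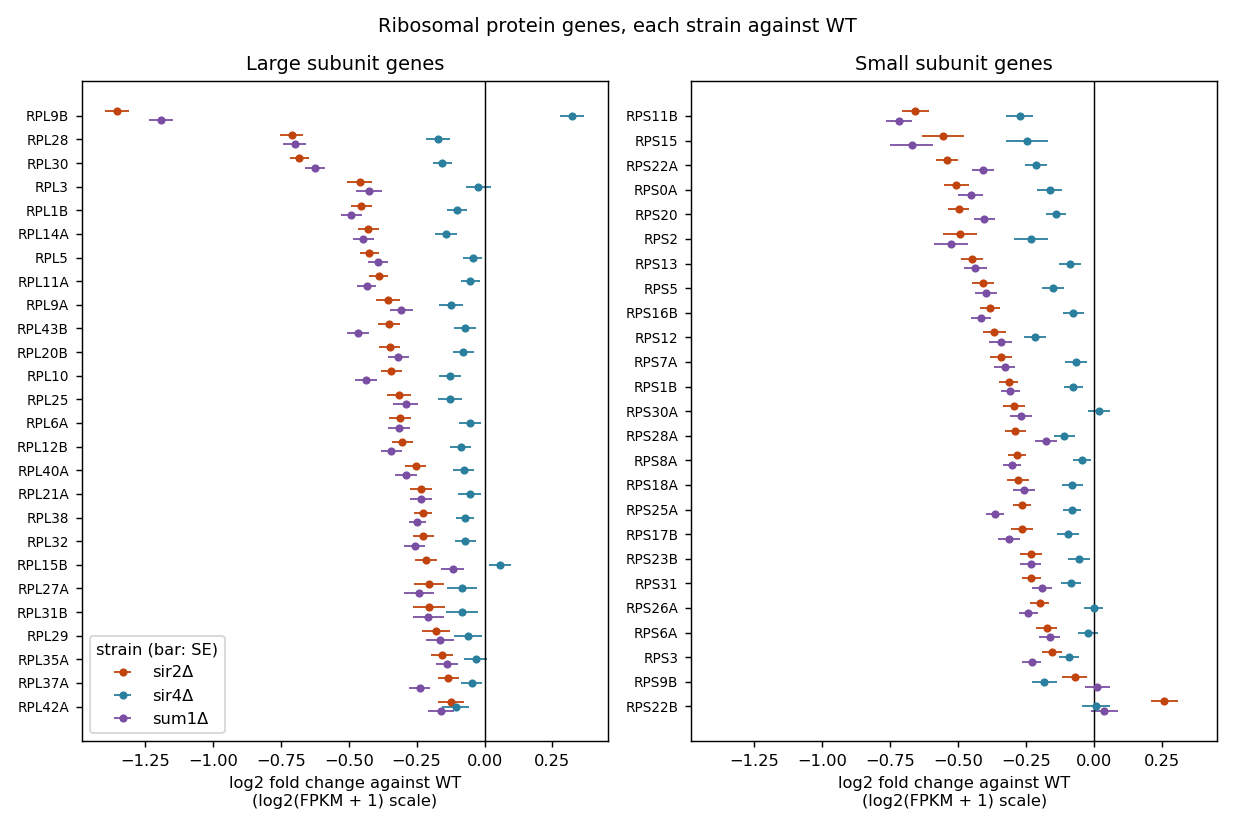
Log2 fold change against WT on the log2(FPKM + 1) scale for each of the 51 ribosomal protein genes, large subunit on the left and small subunit on the right, ordered by the change in sir2∆. Points are the fitted change and bars its SE in sir2∆ (orange), sir4∆ (blue) and sum1∆ (purple). The sir2∆ and sum1∆ points lie close together around a median of -0.31, the sir4∆ points lie near 0 with a median of -0.08, and RPL9B stands far to the left in sir2∆ and sum1∆ and to the right in sir4∆.

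In the strain lacking SIR4 most ribosomal protein genes differed little from WT on the deposited scale. Here 13 of the 51 genes were lower, 1 was higher and 37 were not called, where 20.9% of all tested genes were lower and 16.8% higher. On the deposited scale the share of lower calls among ribosomal protein genes, 25.5%, was thus close to that of all genes. No ribosomal protein gene passed a fold of 2, which 1.35% of all genes passed. The median log2 change was -0.08, against -0.01 over all genes. The direction was nonetheless shared: in 42 of 51 genes both sir4∆ libraries lay below both WT libraries, an order seen in 36.2% of all tested genes. Of the 13 lower genes 4 belonged to the large subunit and 9 to the small subunit.

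The largest falls in sir4∆ were those of RPS11B (-0.27 ± 0.05, adjusted p = 0.00396), RPS15 (-0.25 ± 0.08, adjusted p = 0.0378) and RPS2 (-0.23 ± 0.06, adjusted p = 0.0218). In the large subunit they were those of RPL28 (-0.17 ± 0.04, adjusted p = 0.0164), RPL30 (-0.15 ± 0.04, adjusted p = 0.0119) and RPL14A (-0.14 ± 0.04, adjusted p = 0.0234). RPL15B (0.06), RPS30A (0.02), RPS22B (0.01), RPS26A (0.00) and RPL3 (-0.02), the protein nearest the peptidyl transferase centre, were not called. Several of the 13 calls were lost when a library was left out. Such a fit keeps 1 library of a strain and has fewer degrees of freedom, so a lost call need not mean a changed estimate. Without WT replicate 1 RPS15, RPS2, RPL28, RPL30 and RPL14A lost their calls. Their log2 changes were then -0.14, -0.18, -0.17, -0.15 and -0.125, and the median of the 51 genes was -0.08. RPS2 also lost its call without either sir4∆ library, RPS15 and RPL28 without sir4∆ replicate 2, and RPL14A without sir4∆ replicate 1. With equal total FPKM 23 genes (45.1%) were lower, where 24.5% of all genes were, and under quantile normalization 19 (37.3%), where 18.7% of all genes were. With the depth class as a term in the fit 9 of the 51 genes were lower, where 840 of all 5022 tested genes were. In that fit the share of lower calls was thus close to that of all genes. Counts with a library left out, given further on, have no share over all genes beside them.

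A direct comparison of sir2∆ with sum1∆ left 46 of the 51 genes uncalled, with 2 higher and 3 lower, where 16.7% of all tested genes were higher and 24.2% lower. The median difference was 0.00 and the range ran from -0.16 to 0.22 on the log2 scale. None passed a fold of 2, which 2.41% of all genes passed. The genes higher in sir2∆ were RPS22B (0.22) and RPS25A (0.10, adjusted p = 0.0443), and those lower were RPL9B (-0.16), RPS22A (-0.14, adjusted p = 0.0315) and RPS28A (-0.11, adjusted p = 0.0466). Most of these calls were lost when any 1 sir2∆ or sum1∆ library was left out, in fits with fewer degrees of freedom. The difference of RPL9B then ran from -0.18 to -0.14. The share of all genes called in those fits is not given, so the loss is not particular to these genes as far as shown. RPS15 differed by 0.12 ± 0.08 (adjusted p = 0.268).

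Compared directly, sir2∆ was lower than sir4∆ in 43 of the 51 genes and higher in 1, RPS22B, with 34.8% of all genes lower and 36% higher. The median difference was -0.23, and 1 gene, RPL9B, passed a fold of 2, which 12% of all genes passed. The sir4∆ strain was higher than sum1∆ in 45 genes and lower in 1, RPS9B (-0.20, adjusted p = 0.00475), a call lost without sum1∆ replicate 2 (adjusted p = 0.0501), with 37.1% of all genes higher and 36.3% lower. There the median difference was 0.24, and RPL9B alone passed a fold of 2, which 17.6% of all genes passed. After RPL9B, RPL28 differed most in both comparisons, by -0.54 ± 0.04 between sir2∆ and sir4∆ (adjusted p = 1.57e-05) and by 0.53 ± 0.04 between sir4∆ and sum1∆ (adjusted p = 1.09e-05). With equal total FPKM the medians were -0.08 for sir2∆ against sir4∆ and 0.04 for sir4∆ against sum1∆, beside 0.15 and -0.19 over all genes. For sir2∆ against sir4∆ 19 (37.3%) were then lower and 3 (5.88%) higher, where 22.8% and 47.1% of all genes were. For sir4∆ against sum1∆ 14 (27.5%) were higher and 4 (7.84%) lower, where 22.1% and 50.4% of all genes were. Under quantile normalization the medians were -0.04 and -0.03, beside -0.09 and 0.12 over all genes, so the direction of the last comparison turned. For sir2∆ against sir4∆ 15 (29.4%) were then lower and 9 (17.6%) higher, where 43.2% and 30.5% of all genes were. For sir4∆ against sum1∆ 9 (17.6%) were higher and 11 (21.6%) lower, where 46.3% and 30.7% of all genes were.

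RPL9B (KLLA0F04499g, chromosome F) changed more than any other of the 51 genes in each mutant against WT. It encodes a large subunit protein at the base of the stalk, where translation factors bind, and its paralog RPL9A (KLLA0E09109g, chromosome E) has the same listed length of 576 bases. RPL9B was listed at 1095 and 1125 FPKM in WT, 428 and 441 in sir2∆, 1389 and 1388 in sir4∆, and 490 and 481 in sum1∆. The 4 strains did not overlap: sir4∆ was highest, WT next, and sum1∆ and sir2∆ lowest. Behind these values lay an estimated 1714 to 8540 reads per library. Level and change are both relative to the other RNA in a library, on the deposited scale. Reads that could come from either paralog make the split between RPL9A and RPL9B uncertain.

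RPL9B fell to 39.1% of WT in sir2∆, a log2 change of -1.35 ± 0.04 (adjusted p = 1.48e-07), and to 43.7% of WT in sum1∆, a change of -1.19 ± 0.04 (adjusted p = 1.99e-07). It rose to 125% of WT in sir4∆, a change of 0.32 ± 0.04 (adjusted p = 0.00148). It was the most strongly lowered ribosomal protein gene in sir2∆ and sum1∆ and the most strongly raised in sir4∆. These 3 calls held under all settings tried, with -1.37 to -1.33, -1.21 to -1.17 and 0.30 to 0.34 when each library was left out in turn. The sir2∆ and sir4∆ strains differed by -1.68 ± 0.04 (adjusted p = 4.32e-08), and sir4∆ and sum1∆ by 1.51 ± 0.04 (adjusted p = 4.87e-08). The difference between sir2∆ and sum1∆ was -0.16 ± 0.04 (adjusted p = 0.0208). That call was lost when any 1 of the 4 libraries was left out, with differences of -0.18 to -0.14 and adjusted p from 0.0522 to 0.134.

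RPL9A followed the rest of the group. It stood at 6790 and 6816 FPKM in WT, 5251 and 5394 in sir2∆, 6032 and 6481 in sir4∆, and 5542 and 5461 in sum1∆. Its log2 change was -0.35 in sir2∆ (adjusted p = 0.000318), -0.31 in sum1∆ (adjusted p = 0.000434) and -0.12 in sir4∆ (adjusted p = 0.0603). RPL9B gave 13.9% and 14.2% of the summed FPKM of the pair in WT, 7.53% and 7.55% in sir2∆, 18.7% and 17.6% in sir4∆, and 8.12% and 8.1% in sum1∆. A single scaling factor per library leaves this share as it is, and the strains did not overlap in it.

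The gene on one side of RPL9B is STH1, which encodes a chromatin remodelling ATPase. STH1 was listed at 33.5 and 30.1 FPKM in WT and between 29 and 34.9 FPKM in the mutants, and it was not called in any mutant against WT. On the other side lies KGD1, which encodes a subunit of the α-ketoglutarate dehydrogenase complex. KGD1 stood at 281 and 249 FPKM in WT, 302 and 297 in sir2∆, 230 and 218 in sir4∆, and 168 and 167 in sum1∆. Its log2 changes were 0.18 (adjusted p = 0.0453), -0.24 (adjusted p = 0.0213) and -0.66 (adjusted p = 5.49e-05), so KGD1 moved in the same direction as RPL9B in sum1∆ and in the opposite one in sir2∆ and sir4∆. The libraries did not keep the strand, so reads of overlapping or antisense transcripts cannot be told from those of the gene itself.

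Genes were ranked by the root mean square difference of their 3 log2 changes against WT from those of RPL9B. The 5 closest genes with a symbol were GAL7 (0.22), ATS1 (0.24), POS5 (0.27), FRA1 (0.28) and UPC2 (0.32), ranked over 3 comparisons that share the WT libraries. GAL7, which encodes an enzyme of galactose breakdown, stood at 495 and 530 FPKM in WT, 238 and 190 in sir2∆, 580 and 608 in sir4∆, and 176 and 175 in sum1∆. The closest ribosomal protein gene was RPL28, at rank 82 with a difference of 0.55. The likeness is a description of these libraries only.

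**Figure D4:**
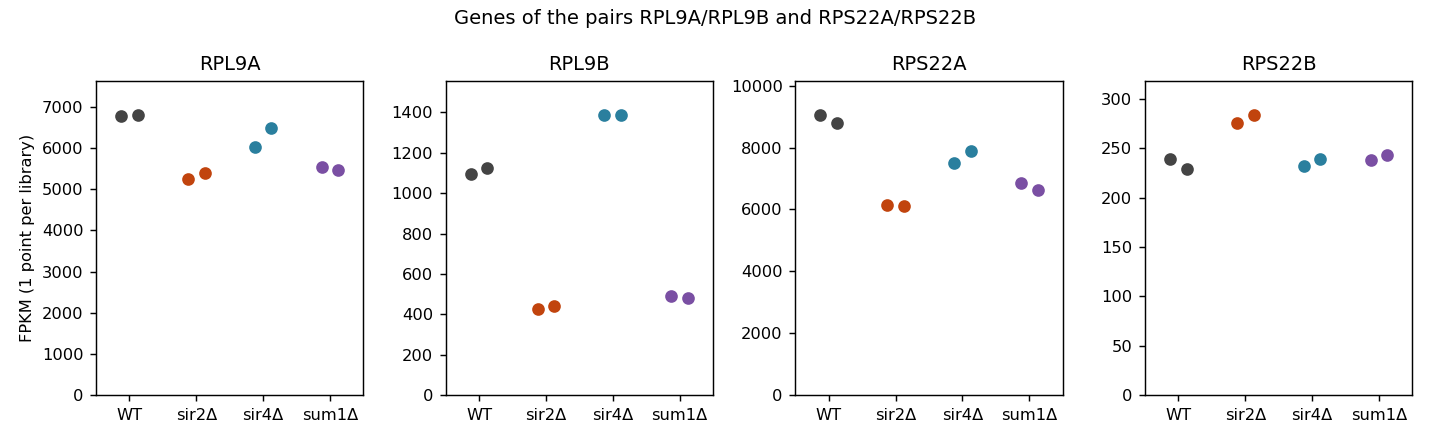
Level in FPKM (linear axis from 0, own scale per panel) of RPL9A, RPL9B, RPS22A and RPS22B in each of the 8 libraries, with 1 point per library. RPL9B falls from 1095 and 1125 FPKM in WT to between 428 and 490 FPKM in sir2∆ and sum1∆ and reaches 1388 and 1389 FPKM in sir4∆, while RPS22B is highest in sir2∆ at 276 and 284 FPKM.

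RPS22A and RPS22B, a pair of paralogs encoding 1 small subunit protein, moved in opposite directions in sir2∆. RPS22A (KLLA0B07601g) stood at 9064 and 8790 FPKM in WT, 6157 and 6100 in sir2∆, 7516 and 7894 in sir4∆, and 6841 and 6617 in sum1∆. RPS22B (KLLA0B07931g) was far lower, at 239 and 229 FPKM in WT, 276 and 284 in sir2∆, 232 and 239 in sir4∆, and 238 and 243 in sum1∆. Both sir2∆ libraries of RPS22B lay above the other 6, which overlapped. RPS22B rose by 0.26 ± 0.05 on the log2 scale in sir2∆ (adjusted p = 0.00286), and in the direct comparison it was higher than in sum1∆ by 0.22 ± 0.05 (adjusted p = 0.00956) and than in sir4∆ by 0.25 ± 0.05 (adjusted p = 0.00219). The difference from sum1∆ lost its call without sir2∆ replicate 2 or without either sum1∆ library, with adjusted p from 0.0535 to 0.0825. At equal totals RPS22B was also called higher in sum1∆ than in WT (0.20, adjusted p = 0.00825). The listed length of RPS22B is 1530 bases against 393 for RPS22A. Its share of the pair was 2.57% and 2.54% of summed FPKM in WT, 4.29% and 4.45% in sir2∆, 2.99% and 2.93% in sir4∆, and 3.36% and 3.54% in sum1∆. The long listed length lowers these shares: of the estimated reads of the pair, RPS22B took 15.5% and 15.3% in WT, 23.7% and 24.5% in sir2∆, 17.7% and 17.4% in sir4∆, and 19.4% and 20.3% in sum1∆. As for the RPL9 pair, reads shared between the copies make these values uncertain. The genes beside RPS22B, looked up after its values were seen, are KLLA0B07909g and VHT1. KLLA0B07909g, which has no symbol, stood at 15.1 and 14.6 FPKM in WT and 20.5 and 23.6 in sir2∆ and rose by 0.53 in sir2∆ (adjusted p = 0.00361) and by 0.31 in sum1∆ (adjusted p = 0.0327). VHT1, a vitamin transporter in S. cerevisiae, fell by 0.22 in sir2∆ (adjusted p = 0.0164). The part of neighbouring transcripts in the RPS22B value was not tested.

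RPS9B, a protein involved in the accuracy of decoding, was the other gene that did not follow the group. It stood at 1543 and 1513 FPKM in WT, 1467 and 1441 in sir2∆, 1373 and 1321 in sir4∆, and 1506 and 1580 in sum1∆. Only the sir4∆ change of -0.18 ± 0.05 (adjusted p = 0.0159) was called on the deposited scale, and at equal totals RPS9B was called higher in sum1∆ (0.18, adjusted p = 0.00738).

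A few more genes are given for their roles in the particle. RPL40A and RPS31, made as fusions with ubiquitin that release the ribosomal protein after cleavage, fell alike in sir2∆ (-0.25 and -0.23) and in sum1∆ (-0.29 and -0.19), and their sir4∆ values of -0.08 and -0.08 were not called. RPL5 and RPL11A, which enter the large subunit together with 5S RNA, fell by 0.42 and 0.39 on the log2 scale in sir2∆ and by 0.39 and 0.43 in sum1∆, and their sir4∆ values of -0.04 and -0.05 were not called. RPL10, which joins the large subunit last and in the cytoplasm, stood at 7933 and 8033 FPKM in WT, 6424 and 6166 in sir2∆, 7199 and 7429 in sir4∆, and 5807 and 5985 in sum1∆. It was lower in all 3 mutants (-0.34, -0.13 and -0.44 in sir2∆, sir4∆ and sum1∆).

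By position, the 13 genes on chromosome F, RPL9B, RPL28, RPS15 and RPS2 among them, had median log2 changes of -0.45 in sir2∆, -0.09 in sir4∆ and -0.43 in sum1∆. On the other 5 chromosomes the medians ran from -0.30 to -0.21 in sir2∆, from -0.09 to -0.06 in sir4∆ and from -0.34 to -0.24 in sum1∆. The genes of a chromosome are few, from 3 on A to 13 on F, and the difference was not tested.

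Level and length were also set beside the changes. The 217 other genes that averaged 1000 FPKM or more had median log2 changes of -0.11 in sir2∆, -0.09 in sir4∆ and -0.23 in sum1∆, so in sir4∆ they lay as low as the ribosomal protein genes. In sir2∆ 94 of these 217 genes were lower and 55 higher, where 29.2% and 28.9% of all genes were. In sum1∆ 128 were lower and 43 higher, where 32.6% and 33.6% of all genes were. This balance depended on the scale. In sir2∆ 64 were lower and 76 higher under quantile normalization (median 0.01) and 68 lower and 74 higher at equal totals (median 0.01), and in sum1∆ 64 were lower and 70 higher under quantile normalization (median -0.04) and 86 lower and 66 higher at equal totals (median -0.06). The 17 ribosomal protein genes under 600 bases had a median of -0.35 in sir2∆ and the 34 longer ones -0.30. Other genes under 600 bases with at least 1000 FPKM, 113 in number, had a median of 0.01 in sir2∆ and -0.12 in sum1∆. Ribosomal protein genes whose listed length is a multiple of 3 had a median of -0.34 in both sir2∆ and sum1∆, and the other 16 had -0.26 in both.

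Related lists of genes were chosen by role. Over all tested genes, on the deposited scale, 28.9% were higher and 29.2% lower in sir2∆. In sir4∆ 16.8% were higher and 20.9% lower, and in sum1∆ 33.6% and 32.6%. The 5 stalk proteins, RPP0 and the acidic P proteins that bind elongation factors, moved like the group: all 5 were lower in sir2∆ (median -0.41) and in sum1∆ (median -0.41), and 4 in sir4∆ (median -0.19). Under quantile normalization 3 of the 5 were lower in sir2∆ (median -0.18) and in sum1∆ (median -0.17). RPP2B stood at 14497 and 14590 FPKM in WT, 10077 and 10833 in sir2∆, 12846 and 13391 in sir4∆, and 10412 and 10889 in sum1∆. ASC1, which encodes a scaffold protein on the small subunit, was lower in all 3 mutants (-0.46, -0.14 and -0.39 in sir2∆, sir4∆ and sum1∆), but under quantile normalization its calls in sir4∆ (-0.09) and sum1∆ (-0.02) were lost, as was that in sir4∆ with the depth term (-0.12). Of 5 translation elongation factor genes 3 were lower and 1 higher in sir2∆ (median -0.27, and 0.00 with 1 lower and 1 higher under quantile normalization), 1 was lower in sir4∆ (median -0.09) and 4 were lower in sum1∆ (median -0.22, turning to 0.04 under quantile normalization). EFB1, the exchange factor for eEF1A, changed by -0.40 in sum1∆ (adjusted p = 9.71e-05). Of 21 initiation factor genes 13 were lower in sir2∆ (median -0.18), 4 in sir4∆ (median -0.08) and 3 in sum1∆, where 2 were higher (median 0.01). The sum1∆ median of this list was -0.01 under quantile normalization and with the depth term, and 0.18 at equal totals with 13 higher.

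Genes whose products assemble ribosomes were counted in the same way, beside the same shares over all genes. Of 67 ribosome biogenesis factors 28 were higher and 6 lower in sir2∆ (median 0.18), 60 were lower in sir4∆ (median -0.57) and 62 were higher in sum1∆ (median 0.72). RRP3, an RNA helicase of small subunit processing, changed by 1.58 in sum1∆ (adjusted p = 2.56e-06) and by -0.05 in sir4∆ (adjusted p = 0.687). RRP1, needed for processing of large subunit RNA, changed by 0.83 in sir2∆ (adjusted p = 0.000903) and by -1.11 in sir4∆ (adjusted p = 0.000861). Of 14 genes of RNA polymerase I and its factors 2 were higher and 2 lower in sir2∆ (median 0.05, and -0.03 under quantile normalization), 9 were lower and 1 higher in sir4∆ (median -0.46) and 11 were higher in sum1∆ (median 0.40).

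Of 11 genes for chaperones and importers of ribosomal proteins 3 were higher and 1 lower in sir2∆ (median 0.17). Of all genes 28.9% were higher and 29.2% lower there, so the higher calls lay near the share over all genes. In sir4∆ 9 were lower (median -0.57), where 20.9% of all genes were, and in sum1∆ 9 were higher (median 0.42), where 33.6% were. LOC1, an RNA-binding protein of large subunit assembly, stood at 114 and 93.5 FPKM in WT, 150 and 156 in sir2∆, 68.4 and 70.1 in sir4∆, and 215 and 222 in sum1∆. The 4 strains did not overlap for LOC1. KAP123, the main importer of ribosomal proteins in S. cerevisiae, changed by -0.39 in sir2∆ (adjusted p = 0.00862).

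The proteins of the mitochondrial ribosome, a separate particle that translates the mitochondrial genome, formed the last list of ribosomal proteins. The list was taken by symbol only: MRPL, MRPS, MRP or RSM followed by a digit. Of its 67 genes 65 were higher in sir2∆ (median 0.57), where 28.9% of all genes were. In sir4∆ 62 were lower (median -0.38), where 20.9% of all genes were, and in sum1∆ 66 were higher (median 0.95), where 33.6% were. The rest of the 67 were not called. RSM19 rose by 0.94 in sir2∆ (adjusted p = 0.000223) and MRPL15 by 1.37 in sum1∆ (adjusted p = 5.17e-06). MRPL13 was among the lowest in sir4∆ (-0.60, adjusted p = 0.000789). The directions of these medians for the mitochondrial, biogenesis, chaperone and stalk lists held under every scaling tried.

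**Figure D5:**
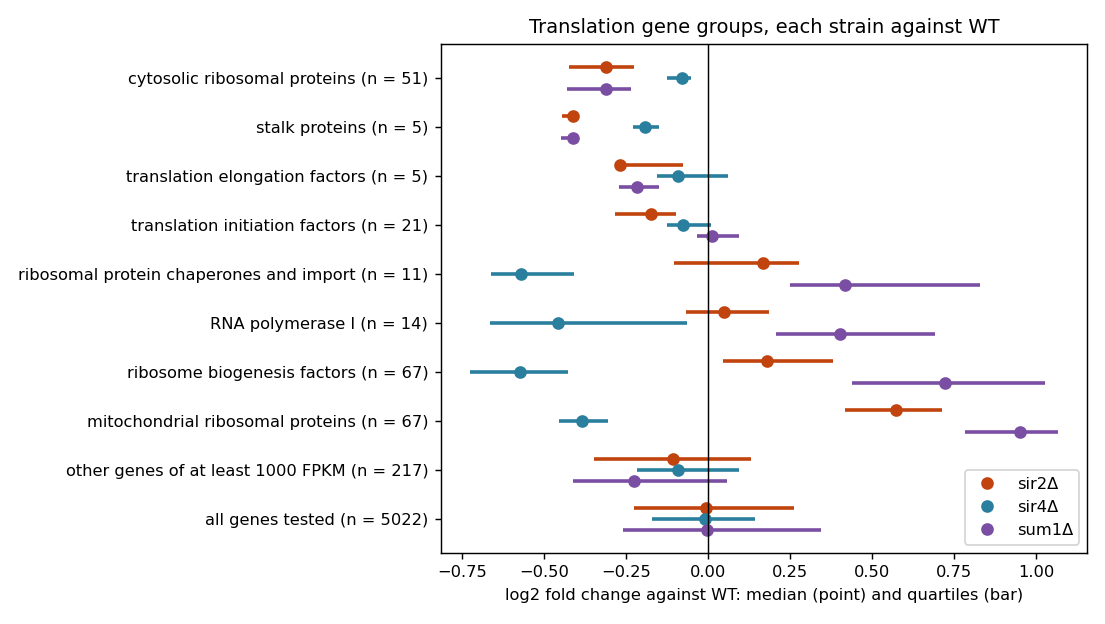
Median (point) and quartiles (bar) of the log2 fold change against WT for the 51 cytosolic ribosomal protein genes, related gene lists, the 217 other genes of at least 1000 FPKM and all 5022 genes tested, in sir2∆ (orange), sir4∆ (blue) and sum1∆ (purple). The cytosolic set lies at -0.31, -0.08 and -0.31, the mitochondrial ribosomal proteins at 0.57, -0.38 and 0.95, and the biogenesis factors at 0.18, -0.57 and 0.72; the elongation factor median in sum1∆ turns positive under quantile normalization.

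Of 14 genes listed as regulators of ribosomal protein genes in yeasts, 5 were lower and 2 higher in sir2∆. There the median was -0.10, and 0.01 at equal totals, and 29.2% of all genes were lower and 28.9% higher. In sir4∆ 3 were lower and 1 higher (median 0.01, and -0.02 at equal totals), where 20.9% and 16.8% of all genes were. In sum1∆ 8 were lower and 3 higher (median -0.23), where 32.6% and 33.6% of all genes were. At equal totals the sum1∆ median was -0.07, with 3 lower and 4 higher, where 18.4% and 47.6% of all genes were. SFP1, an activator in S. cerevisiae, stood at 83.8 and 92.3 FPKM in WT, 66.6 and 60 in sir2∆, 107 and 96.4 in sir4∆, and 68.5 and 70.3 in sum1∆, and its log2 change in sir2∆ was -0.47 (adjusted p = 0.00137). TBF1, a general DNA-binding factor, stood at 35.3 and 30.4 FPKM in WT, 39.2 and 40.6 in sir2∆, 23.9 and 25.8 in sir4∆, and 84.8 and 85.2 in sum1∆. TBF1 rose by 1.35 in sum1∆ (adjusted p = 2.73e-06) and by 0.28 in sir2∆ (adjusted p = 0.016) and fell by 0.39 in sir4∆ (adjusted p = 0.00662). GCR1, an activator of glycolytic and ribosomal protein genes in S. cerevisiae, changed by -0.80 in sum1∆ (adjusted p = 5.65e-05). Other regulators of the list went the other way. FHL1, named with SFP1 at the start, rose by 0.55 in sum1∆ (adjusted p = 0.00177), and ABF1 rose by 0.555 in sir2∆ (adjusted p = 0.00202). STB3, a repressor in S. cerevisiae, rose by 0.56 in sir4∆ (adjusted p = 0.00623) and fell by 0.46 in sum1∆ (adjusted p = 0.00717).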

How the data were processed

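The authors deposited FPKM values for each gene in 8 libraries. Per the submitters' processing notes, TopHat2 2.0.10 and Cuffnorm 2.2.1 were used. Genome build and annotation were not given in the sources used here. Per the labels' protocols, total RNA was extracted with hot phenol, libraries were made with a kit that keeps no strand, and single reads of 50 bases were taken by Illumina sequencing. Reads of close paralogs may be shared.

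All 5076 identifiers matched the RefSeq gene table, which names 3959 of them. Strains were compared in all 6 pairs with limma 3.58.1 (R 4.3.3). The input was log2(FPKM + 1). The settings were an intensity trend, all 4 strains in the fit (4 residual and 4.02 prior degrees of freedom), a minimum mean of 1 FPKM, and Benjamini-Hochberg adjustment. A gene was called at an adjusted p below 0.05, alone or with a log2 change of at least 1. This scale understates the change of low genes. Count models were not used. Reads per library were estimated from FPKM steps, assuming fragments of 200 bases (SD 80). With the listed length less 3 bases, 99.2% to 99.4% of genes over 600 bases with at most 3000 reads came out whole within 0.1. The fit was tested on simulated data with known changes. Python 3.11.15, numpy 2.4.6, pandas 2.3.3, scipy 1.17.1 and matplotlib 3.10.9 were used otherwise.

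The members and gene lists were chosen with earlier results of these data known, so counts over them are descriptions. Named were RPL9B, SUM1, members past both thresholds, the 3 highest and 3 lowest changes of each subunit against WT, the 2 highest and 2 lowest members between mutants, the 3 highest and 3 lowest WT levels of each subunit, the neighbours of RPL9B, the 5 genes most like it, and up to 4 genes per list and comparison. Paralogs and genes named for their role were added to this rule. Alternatives covered the pseudocount, the minimum, scaling, each library left out, the replicate block, the trend, the groups in the fit and, added after the data were seen, the depth class, equal totals and the kind of listed length. The planned count of promoter motifs was not run.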

Additional observations from a re-analysis of the deposited data

How the results depend on the processing

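On the deposited scale the counts depended little on the pseudocount (0.1 or 5), a minimum of 10 FPKM or median-ratio scaling. Without the minimum 2 members were higher in sir2∆ than in sir4∆. The scale between libraries moved many counts. Quantile normalization gave 25 lower in sir2∆, 2 higher in sir4∆, and 17 lower and 5 higher in sum1∆. It gave 1 higher and 11 lower for sir2∆ against sum1∆, 9 higher and 15 lower for sir2∆ against sir4∆, and 9 higher and 11 lower for sir4∆ against sum1∆, where the median turned to -0.027. For sir2∆ against sum1∆ 20.1% of all genes were higher and 23.7% lower under quantile normalization. RPL9B lost its call between sir2∆ and sum1∆ (-0.12). RPL35A, RPL37A, RPL42A and RPS9B turned to 0.11, 0.028, 0.037 and 0.009 in sir2∆, RPL3 to 0.068 in sir4∆, and RPL15B, RPL35A, RPL42A and RPS6A to 0.16, 0.19, 0.10 and 0.16 in sum1∆. Equal totals moved the median of all genes by over 0.1 in the comparisons other than sir4∆ against WT and sir2∆ against sum1∆, and gave 23 lower in sir4∆, 30 lower and 2 higher in sum1∆, 1 higher and 7 lower for sir2∆ against sum1∆, 3 higher and 19 lower for sir2∆ against sir4∆, and 14 higher and 4 lower for sir4∆ against sum1∆. For sir2∆ against sum1∆ 13.6% of all genes were higher and 30.5% lower at equal totals. RPS9B turned to 0.046 in sir2∆, RPS22B to -0.027 and RPS30A to -0.015 in sir4∆. RPL15B, RPL35A, RPL42A and RPS6A turned to 0.049, 0.03, 0.006 and 0.004 in sum1∆. The share of FPKM without the 1% of genes with the highest mean was 9.19% for WT, 7.54% for sir2∆, 8.65% for sir4∆ and 7.59% for sum1∆. That share leaves out 20 of the 51 members. With FPKM multiplied by the listed length, the share was 14.5% for WT, 12.9% for sir2∆, 12.9% for sir4∆ and 13.0% for sum1∆. By that measure sir4∆ lay as low as the other mutants.

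In sir4∆ 7 were lower without the intensity trend and 4 with only WT and sir4∆ in the fit, which for sir2∆ against sum1∆ gave 4 higher. Without the trend 1 was higher and 1 lower between sir2∆ and sum1∆, as with the depth class, which turned RPS22B to 0.021 between sir4∆ and sum1∆. Leaving out each library gave 3 to 11 lower in sir4∆, 0 to 1 higher and 0 lower for sir2∆ against sum1∆, 0 to 1 lower for sir4∆ against sum1∆, and -0.18 to -0.14 for RPL9B between sir2∆ and sum1∆. RPL3 ran from -0.056 to 0.01, RPS26A from -0.01 to 0.008, RPS22B from -0.021 to 0.037 and RPS30A from -0.007 to 0.047 in sir4∆, and RPS9B from -0.021 to 0.048 in sum1∆. The counts in this paragraph are given without shares over all genes. The causes of these shifts were not tested.

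With the replicate block, 48 members were lower in sir2∆, 12 in sir4∆ and 48 in sum1∆, and 1 was higher and 1 lower between sir2∆ and sum1∆. These counts too are given without shares over all genes, so they are no result about the members alone. The replicate numbers did not pair the libraries: the correlation of the differences within strains ran from -0.25 to 0.03, and only 2 numbers exist. Each member had at least 1714 estimated reads in every library. The parts of counting, of the spread between libraries and of the scaling in the limits of these comparisons were not tested.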
